A study of Mus musculus with 2 samples.

Results

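Klf2, Klf4 and Klf5 are 3 of the Kruppel-like factor genes, and the binding sites of NANOG around them were followed through every peak list of the experiment. The genes were chosen by name, as 3 of the 21489 protein-coding genes whose strand was known, and their sites were all summits of the authors' optimal peak set that lay in the gene body or within 100 kb of the transcription start site (TSS). The rule found 17 such summits among 15891, of which Klf2 had 3, Klf4 had 5 and Klf5 had 9. The homeodomain transcription factor NANOG had been mapped by ChIP-seq (sequencing of DNA pulled down with an antibody, here one to NANOG). The cells were E14TG2a.4, a mouse embryonic stem cell line from strain 129/Ola that the labels give as male, with an age of 3.5 days. There was 1 group of 2 biological replicates, each with 1 technical replicate. The replicates were separate samples of 1 cell line from 1 donor, with no treatment given in the labels, so a spread between them may be technical. With 1 group no test between groups was possible, and values of the 3 genes are set beside the same values over all genes or all peaks.

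KLF2, KLF4 and KLF5 are zinc-finger transcription factors that recognise GC-rich and CACCC-type DNA. In mouse embryonic stem cells they act with OCT4, SOX2, NANOG and ESRRB to maintain naive pluripotency, and their functions overlap in part. Klf4 is activated by the cytokine LIF through STAT3 and is one of the factors used to reprogramme somatic cells, KLF2 is destabilised by the MEK and ERK kinases, and Klf5 also functions in the trophectoderm of the early mouse embryo. The files hold binding sites and no expression, so neither the labelled cell type nor the expression of the 3 genes could be checked. NANOG summits lay in the windows of the pluripotency genes Pou5f1, Sox2 and Nanog, with 8 optimal summits each. By number that is percentile 99.1 of all protein-coding genes, of which 67.2% had at least 1. The Pou5f1 window also holds the TSS of 8 other genes and the Nanog window those of 3. These counts are a description and no check of the cell type.

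The peak lists differ in how they were made. The optimal and conservative sets are the peaks on genome build mm10 that passed the authors' IDR step (irreproducible discovery rate), a statistic of how reproducibly peaks rank. Each replicate also had a relaxed mm10 list of 300000 ranked regions that holds peaks and background, and the 15891 highest regions of each, as many as the optimal set holds, are called its top regions here. The signal of a peak is the authors' own enrichment statistic, whose scale is not stated, so it is used to describe and rank peaks within 1 list and ranks count from 1 at the highest signal. Over the optimal set the signal ran from 7.30 to 676 with a median of 40.2. The number of reads per replicate is unknown.

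All 17 NANOG sites lay outside the 3 gene bodies and outside every other protein-coding gene, and none was at a promoter. Of all optimal summits, 45.3% lay inside a protein-coding gene and 3.2% were less than 1 kb from the TSS of one, and 0 of the 17 did either. More than 10 kb separated 15 of the 17 from the TSS of their gene, against 79.3% of all optimal summits that lay over 10 kb from every protein-coding TSS. For all 17, the nearest protein-coding TSS was that of Klf2, Klf4 or Klf5 itself. The nearest other protein-coding TSS was that of Ap1m1 for Klf2, 79.0 kb from the Klf2 TSS, that of Rad23b for Klf4, at 182 kb, and that of Dis3 for Klf5, at 199 kb. Klf4 and Klf5 thus had no other protein-coding TSS within 100 kb, which held for 13.5% of all genes, and Klf2 had 2, Ap1m1 and Fam32a, which lies at 99.3 kb. The bodies of Klf2, Klf4 and Klf5 are also short, at 2.59, 5.34 and 14.7 kb. Summits in these windows thus had little room to lie in the gene's own body or at a promoter. Such spacing also favours the gene's own TSS as the nearest. The shares over all optimal summits are therefore no like-for-like comparison.

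**Figure D1:**
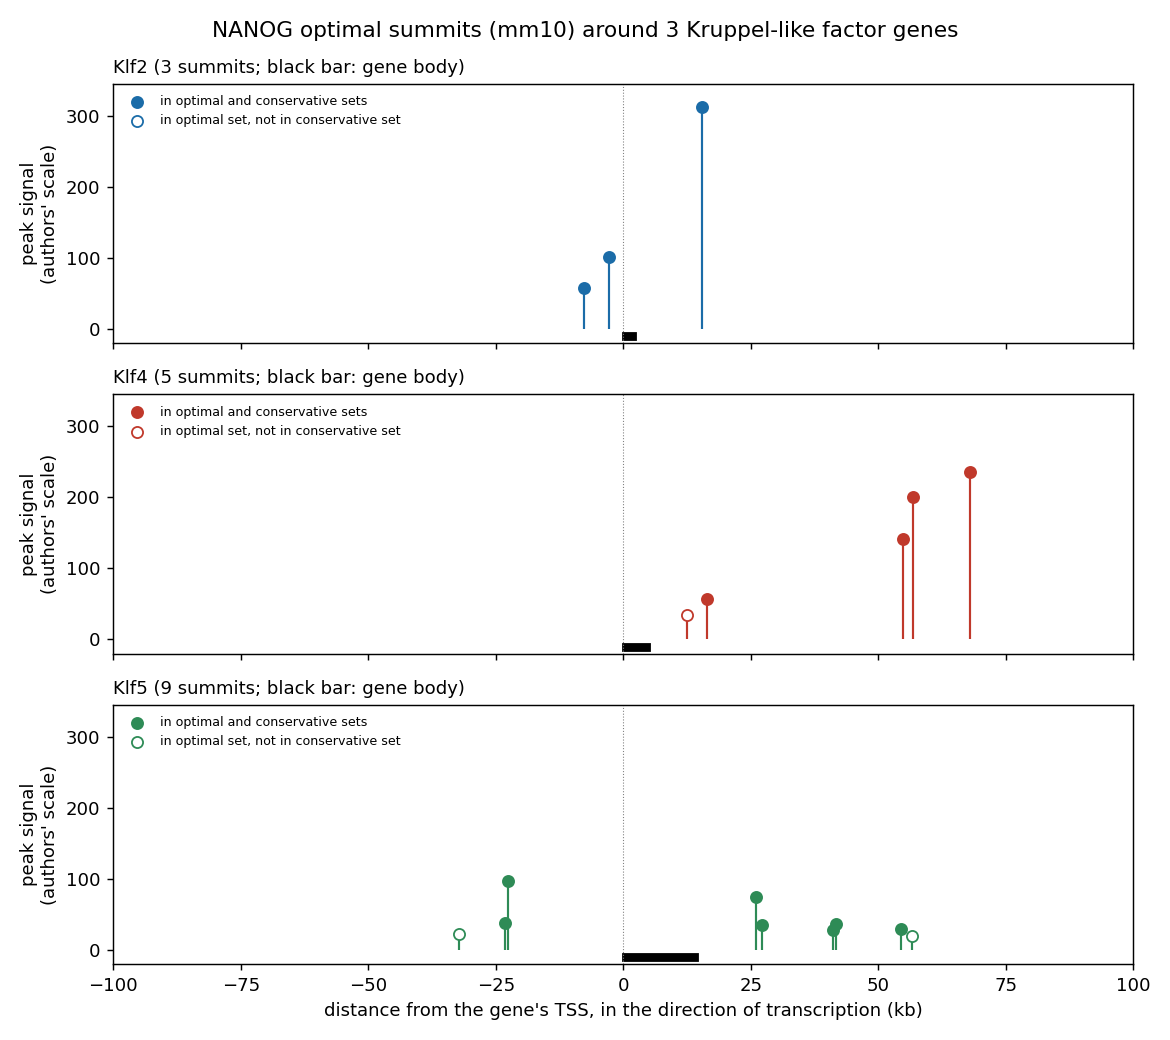
Position and signal of the 17 optimal NANOG summits around Klf2, Klf4 and Klf5; the x axis is the distance from the TSS in kb in the direction of transcription, the y axis is the authors' peak signal, and each stem is 1 summit. The highest stem is that of Klf2 at 15.4 kb downstream (signal 312), Klf4 has 3 stems of signal 141 to 235 between 54.9 and 68.0 kb, and no stem of Klf5 exceeds 97.5.

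Klf2 had the fewest sites of the 3 genes, and 1 of them was among the strongest of the optimal set. The gene lies on mm10 chromosome 8, from 72319062 to 72321654 on the plus strand. A peak 15.4 kb downstream of its TSS (chromosome 8, 72334242 to 72334607) had a signal of 312 and rank 161 of 15891, within the highest 1.01%. It lay between Klf2 and the end of Eps15l1, an endocytic adaptor gene on the opposite strand. A peak 2.83 kb upstream of the TSS (72316140 to 72316370) had a signal of 101 and rank 2186, and a peak 7.78 kb upstream (72311098 to 72311461) had a signal of 57.0 and rank 5130.

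Both replicates held the 3 Klf2 sites at close ranks. The peak 15.4 kb downstream ranked 182 in replicate 1 and 143 in replicate 2, with summits 5 bp apart and signals of 213 and 98.9 on the scale of each list. The peak 2.83 kb upstream ranked 2581 in replicate 1 and 1357 in replicate 2, and the peak 7.78 kb upstream 5564 and 4866. All 3 were in the conservative set. The order of the sites by strength was therefore the same in the 2 replicates. Taken on its own, replicate 1 had 5 top regions in the Klf2 window and replicate 2 had 4, so without replicate 2 the count of 3 became 5.

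The Klf4 sites were all downstream of the gene and formed a near and a far group. Klf4 lies on mm10 chromosome 4, from 55527137 to 55532475 on the minus strand, so downstream sites have lower coordinates. The far group held 3 strong peaks within 13.1 kb, in a stretch downstream of the gene where distal Klf4 enhancers are known in mouse embryonic stem cells. The strongest, 68.0 kb from the TSS (chromosome 4, 55464276 to 55464707), had a signal of 235 and rank 382. The peak at 56.9 kb (55475417 to 55475698) had a signal of 201 and rank 558, and the one at 54.9 kb (55477424 to 55477744) a signal of 141 and rank 1197. The near group held weaker peaks, with a signal of 57.1 and rank 5124 at 16.4 kb (55515913 to 55516276), and 34.9 and rank 9314 at 12.6 kb (55519696 to 55520059).

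Upstream of Klf4 no optimal summit lay in the window, and the nearest one upstream was 1324 kb from the TSS. Downstream, a summit of signal 29.3 lay 102 kb from the TSS, just outside the window, while the farthest inside was the strong peak at 68.0 kb. In replicate 2 alone, 1 top region lay 35.0 kb upstream, at rank 6765. It ranked 176503 in replicate 1.

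The far Klf4 sites ranked high in both replicates, whereas the site nearest to the gene ranked high in replicate 1 only. The peak at 68.0 kb ranked 406 in replicate 1 and 389 in replicate 2, with signals of 169 and 64.3 on the scale of each list, and the peak at 56.9 kb ranked 601 and 529. The peak at 54.9 kb ranked 1885 in replicate 1 and 510 in replicate 2. Between these neighbours, 2.02 kb apart, the order was thus reversed in replicate 2, where the peak at 54.9 kb stood just above the one at 56.9 kb. The peak at 16.4 kb ranked 5614 in replicate 1 and 4661 in replicate 2. The peak at 12.6 kb ranked 8284 in replicate 1 and 235702 in replicate 2, and it was the only Klf4 site missing from the conservative set.

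Klf5 had more optimal summits than Klf2 and Klf4, most of them weak and in close pairs. Above the median signal of the optimal set it had 2, against 4 for Klf4 and 3 for Klf2. In the series-level mm9 list it had 3 peaks, against 5 for Klf4 and 3 for Klf2. Those wider peaks spanned 5 Klf5 sites, 5 Klf4 sites and 3 Klf2 sites. Klf5 lies on mm10 chromosome 14, from 99298691 to 99313412 on the plus strand. Of its 9 summits, 3 were upstream, between 22.7 and 32.2 kb from the TSS, and 6 were downstream, between 26.1 and 56.7 kb. The strongest, 22.7 kb upstream (chromosome 14, 99275964 to 99276060), had a signal of 97.5 and rank 2307 and was a narrow region of 97 bp, where the median of the optimal set is 364 bp. The peak 26.1 kb downstream (99324633 to 99324996) had a signal of 74.1 and rank 3558. The other 7 had signals from 20.1 to 37.5, below the optimal median of 40.2. The median signal was 34.6 for the 9 Klf5 sites, against 141 for the 5 of Klf4 and 101 for the 3 of Klf2.

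The Klf5 sites came in close groups. Of the 9, 8 had another optimal summit within 2.5 kb and 6 within 1.1 kb, distances that were chosen after the values were seen. Of all optimal summits, 18.3% and 13.6% had one, and among the Klf4 sites the pair at 54.9 and 56.9 kb had one within 2.5 kb and none within 1.1 kb. The pair 23.2 and 22.7 kb upstream was 564 bp apart, with signals of 37.5 and 97.5. Downstream, the pair at 26.1 and 27.1 kb was 1012 bp apart (signals 74.1 and 34.6), the pair at 41.1 and 41.6 kb was 557 bp apart (27.6 and 37.1), and the pair at 54.5 and 56.7 kb was 2124 bp apart (30.2 and 20.1). The regions of the closest pair were separated by 193 bp. Summits this close may share DNA fragments, and each is still counted as a site in the 9 and the 17.

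Counted in ranks, both strong Klf5 sites were close in the replicates, and the weak ones were further apart or had no match in replicate 2. In proportion to rank the contrast was smaller, and the weak peak at 41.1 kb was about as close as the strong one 22.7 kb upstream. The peak 22.7 kb upstream ranked 2606 in replicate 1 and 1908 in replicate 2, with signals of 69.8 and 26.9 on the scale of each list, and the peak 26.1 kb downstream ranked 3812 and 3616. Of the weak sites, the one 23.2 kb upstream ranked 9562 in replicate 1 and 5542 in replicate 2. The pair at 41.1 and 41.6 kb ranked 13847 and 13792 in replicate 1, but 9886 and 4238 in replicate 2. The peak at 27.1 kb ranked 8586 in replicate 1 and 29342 in replicate 2, and the peak at 54.5 kb 12024 and 17973, so both were outside the top regions of replicate 2. The weakest sites, 32.2 kb upstream (signal 22.7) and 56.7 kb downstream (signal 20.1), had no region of replicate 2 with a summit within 100 bp. They were also the only Klf5 sites missing from the conservative set, and the first of them ranked 18191 in replicate 1, outside its top regions as well.

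A much stronger peak lay beyond the Klf5 window. It was 212 kb downstream of the TSS, outside the limit of 100 kb, with a signal of 225 and rank 427, and Klf5 was still its nearest protein-coding gene. The farthest Klf5 site inside the window was at 56.7 kb with a signal of 20.1, and on the upstream side the next optimal summit lay 191 kb away, nearest to Dis3, with a signal of 82.9.

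**Figure D2:**
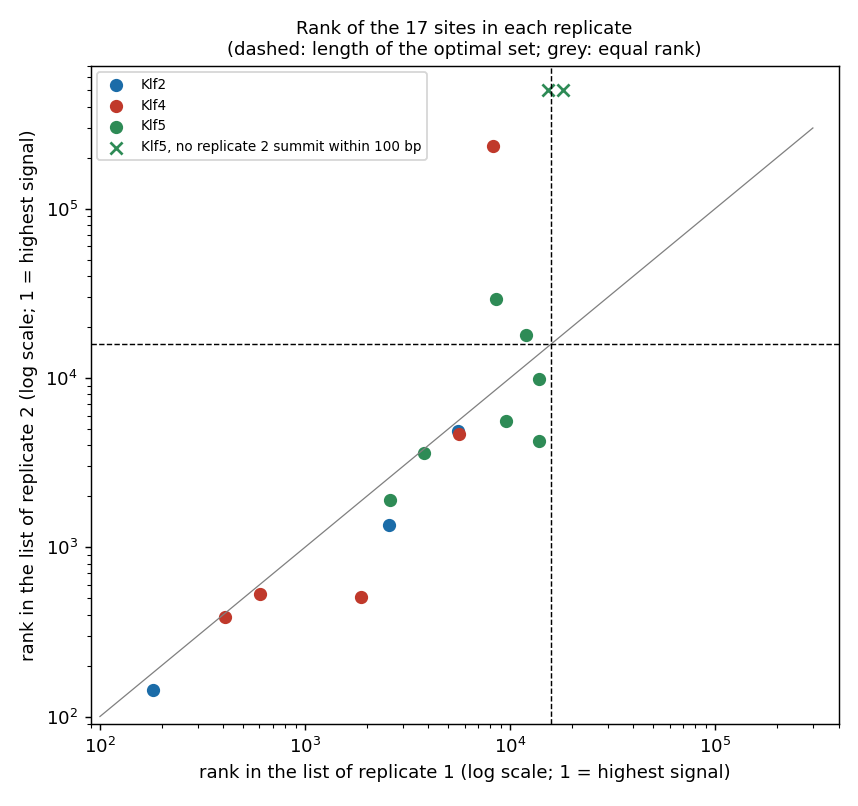
Rank of each of the 17 sites in the relaxed list of replicate 1 (x axis) and replicate 2 (y axis), both on log scales with 1 as the highest signal; colours are genes, the dashed lines mark rank 15891, and crosses at the upper edge are 2 Klf5 sites with no replicate 2 summit within 100 bp. The 9 sites within the first 6000 ranks of replicate 1 are also within the first 6000 of replicate 2, and the Klf4 site at 12.6 kb lies far from the line of equal rank (8284 in replicate 1 and 235702 in replicate 2).

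Over the 3 genes, 14 of 17 sites were in the conservative set, 16 in the top regions of replicate 1 and 12 in those of replicate 2, each counted as a summit within 100 bp. The shares over all optimal summits were 55.6%, 83.1% and 50.5%. Top regions of both replicates held 12 of the 17, against 46.2% of all optimal summits. These sets were derived from the same lists, so some matching is built in. In the whole relaxed lists, replicate 1 matched 17 and replicate 2 matched 15, against 96.9% and 75.0% of all optimal summits. The shares fall with peak rank. All 4 sites ranked 1 to 2000 were in the top regions of replicate 2 (99.5% of all summits of those ranks) and in the conservative set (99.8%). The 5 sites ranked 2001 to 6000 were also in both (83.5% and 88.6% of all). Of the 4 sites ranked 6001 to 10000, 2 were in the top regions of replicate 2 (44.0% of all) and 3 in the conservative set (57.1%). Of the 4 ranked from 10001 to 15891, 1 and 2 were (15.8% and 17.2%). Where both replicates had a summit within 100 bp of the optimal one, at 15 sites, the summits of the replicates were 4 to 103 bp apart, with a median of 27 bp.

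The mm9 lists, compared with the mm10 lists only by distance from the TSS, held the strong sites again. The series-level mm9 list had 3 peaks around Klf2, 5 around Klf4 and 3 around Klf5. They spanned the TSS distances of all 3 Klf2 sites, all 5 Klf4 sites and 5 of the 9 Klf5 sites, since 1 wide peak spanned the pair near 23 kb upstream and another the pair near 41 kb downstream. The genes Ap1m1 and Fam32a near Klf2, Rad23b near Klf4 and Dis3 near Klf5 lay at the same distance in both builds to within 34 bp, and Eps15l1, downstream of Klf2, differed by 73 bp. Dis3 lies upstream of Klf5. On the downstream side the nearest gene compared, Klf12, was 987200 bp away in mm10 and 851105 bp in mm9, a difference of 136095 bp. The next one, Tbc1d4, was 2310590 bp away in mm10 and 2310498 bp in mm9, a difference of 92 bp. The distance to Tbc1d4 as a whole was thus nearly equal in both builds. For the 6 downstream Klf5 sites the spacing was checked by these far genes only and by no close neighbour. A slack of 50 bp was allowed. The Klf2 peak with its midpoint 15.3 kb downstream had an enrichment of 33.4 and rank 224 of 13341. The Klf4 peaks at 68.0, 56.8 and 54.8 kb had enrichments of 29.9, 21.0 and 15.9, and the Klf5 peak 23.0 kb upstream had 10.6. The order of the genes by their strongest peak, Klf2 before Klf4 before Klf5, was therefore the same in the series-level list of each build.

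The mm9 lists of the single replicates differed in the weak sites. Replicate 2 had 3 peaks for each gene, and in it the Klf4 sites at 12.6 and 16.4 kb were spanned by none. Replicate 1 had 6 peaks around Klf2, 5 around Klf4 and 6 around Klf5. In replicate 1 the Klf5 peaks at 54.4 and 56.6 kb had q-values of 0.208 and 0.0854, and the 3 additional Klf2 peaks, 47.2 and 27.7 kb upstream and 30.1 kb downstream, had q-values from 0.195 to 0.262. With peaks of q at most 0.05, a limit applied to replicate 1 after the values were seen, it had 3 around Klf2 and 3 around Klf5. At its midpoint, the Klf4 peak at 68.0 kb lay in the noncoding gene Gm12510, outside its exons, and the other 10 series-level peaks lay in no annotated mm9 gene.

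**Figure D3:**
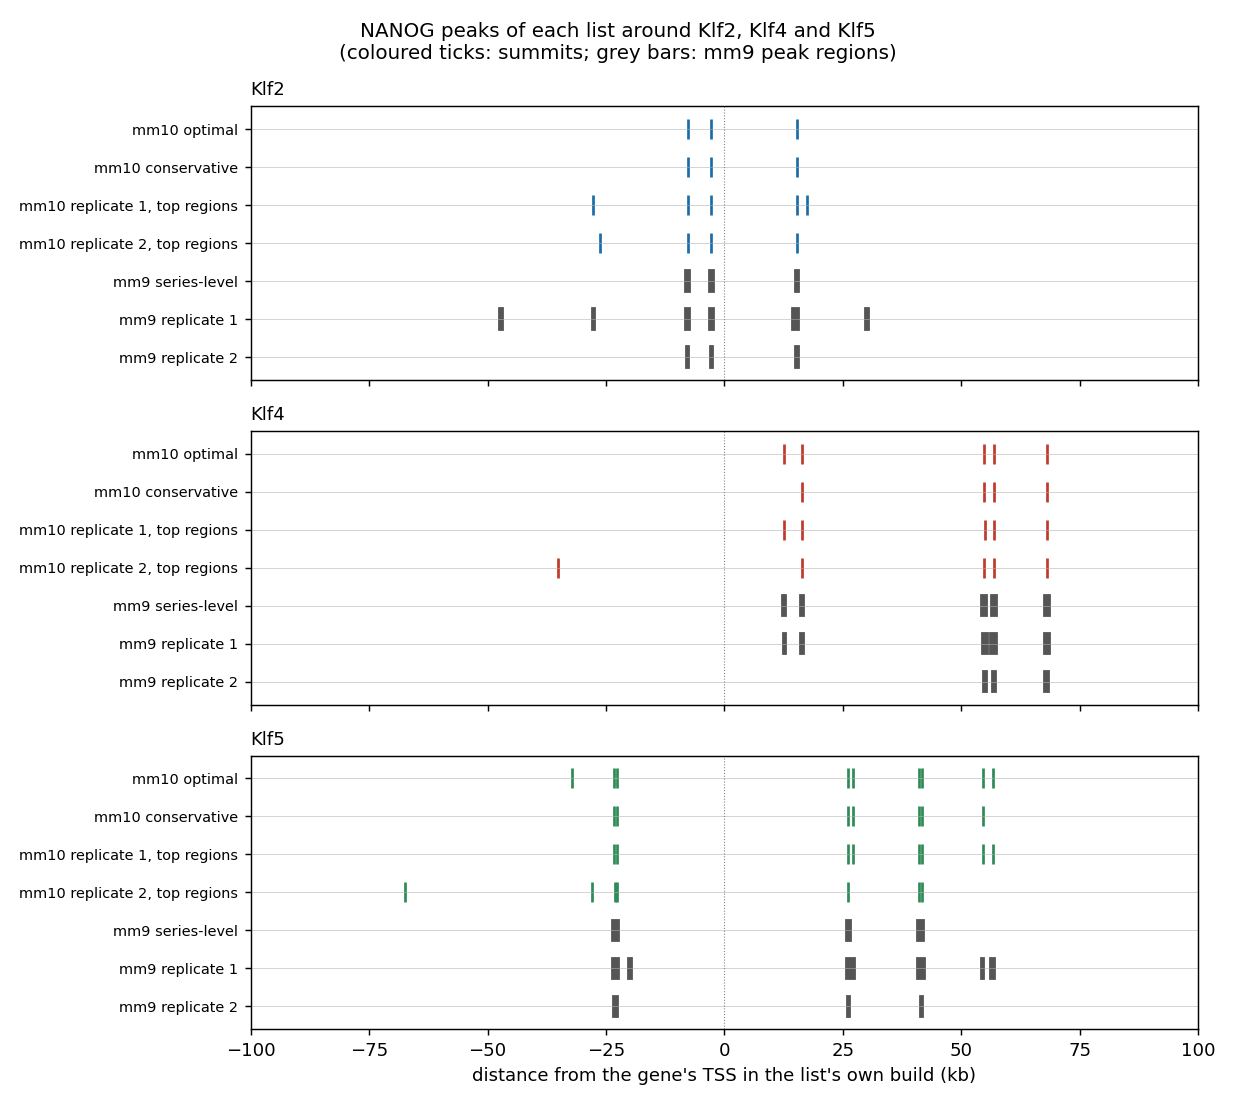
NANOG peaks of 7 lists around Klf2, Klf4 and Klf5 by distance from the TSS in each list's own build (x axis, kb); coloured ticks are mm10 summits, grey bars are mm9 peak regions, and each row is 1 list. The 3 Klf2 sites and the 3 far Klf4 sites appear in all 7 rows. So do the Klf5 sites 23.2 and 22.7 kb upstream and 26.1 and 41.6 kb downstream. The Klf5 sites beyond 50 kb downstream are in neither the top 15891 mm10 regions nor the mm9 list of replicate 2. The site at 54.5 kb is in the relaxed list of replicate 2 at rank 17973.

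Sequence could be read for the mm9 peaks, since only a genome of that build was used. The 300 bp around the midpoint of 6 of the 11 peaks are shown: the strongest of each gene (Klf2 at +15.3 kb, Klf4 at +68.0 kb, Klf5 at -23.0 kb) and the one of each gene with the most motif matches (Klf2 at -7.8 kb, Klf4 at +56.8 kb, Klf5 at +41.4 kb). A plus sign means downstream of the TSS, and all are given on the plus strand of mm9. Capitals mark matches to the searched motifs: the OCT octamer ATGCAAAT, the SOX site CATTGT, a joint site (the SOX site, any 1 base, then the octamer) with up to 3 mismatches, the ESRRB site TCAAGGTCA with up to 1 mismatch, the KLF sites CCACACCC and CCCCGCCC, the STAT site TTCCNGGAA, the TCF site CTTTGAT, and the homeobox sites TAATGG and TAATTG, each on both strands.
Klf2 +15.3 kb (chr8:74858107-74858406): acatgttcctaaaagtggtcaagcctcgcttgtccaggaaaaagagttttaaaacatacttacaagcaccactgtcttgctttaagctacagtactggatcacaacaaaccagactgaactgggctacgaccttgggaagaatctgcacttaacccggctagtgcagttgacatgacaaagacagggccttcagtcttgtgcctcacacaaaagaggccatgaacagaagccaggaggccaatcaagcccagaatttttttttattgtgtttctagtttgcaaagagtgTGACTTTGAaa
Klf2 -7.8 kb (chr8:74834979-74835278): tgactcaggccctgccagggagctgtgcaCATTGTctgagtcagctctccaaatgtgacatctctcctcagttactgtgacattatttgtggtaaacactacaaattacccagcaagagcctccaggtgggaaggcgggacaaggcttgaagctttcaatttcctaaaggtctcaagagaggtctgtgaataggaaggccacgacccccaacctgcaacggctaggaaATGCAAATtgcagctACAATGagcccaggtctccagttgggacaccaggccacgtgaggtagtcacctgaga
Klf4 +68.0 kb (chr4:55477159-55477458): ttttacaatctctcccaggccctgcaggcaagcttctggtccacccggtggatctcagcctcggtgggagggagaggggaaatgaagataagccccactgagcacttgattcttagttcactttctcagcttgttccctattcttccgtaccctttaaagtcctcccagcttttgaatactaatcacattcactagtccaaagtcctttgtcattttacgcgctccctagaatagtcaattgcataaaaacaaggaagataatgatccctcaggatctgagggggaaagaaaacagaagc
Klf4 +56.8 kb (chr4:55488378-55488677): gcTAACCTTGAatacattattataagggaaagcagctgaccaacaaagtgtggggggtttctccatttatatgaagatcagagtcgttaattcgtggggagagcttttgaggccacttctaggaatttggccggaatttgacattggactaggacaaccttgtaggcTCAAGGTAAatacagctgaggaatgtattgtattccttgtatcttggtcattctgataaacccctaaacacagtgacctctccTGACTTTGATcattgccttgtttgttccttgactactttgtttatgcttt
Klf5 -23.0 kb (chr14:99674810-99675109): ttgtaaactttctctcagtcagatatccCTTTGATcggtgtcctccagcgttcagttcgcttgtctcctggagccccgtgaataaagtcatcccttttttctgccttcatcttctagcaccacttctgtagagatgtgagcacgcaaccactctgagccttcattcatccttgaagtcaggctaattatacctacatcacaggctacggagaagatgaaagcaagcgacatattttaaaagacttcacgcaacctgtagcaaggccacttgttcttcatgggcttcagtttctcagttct
Klf5 +41.4 kb (chr14:99739195-99739494): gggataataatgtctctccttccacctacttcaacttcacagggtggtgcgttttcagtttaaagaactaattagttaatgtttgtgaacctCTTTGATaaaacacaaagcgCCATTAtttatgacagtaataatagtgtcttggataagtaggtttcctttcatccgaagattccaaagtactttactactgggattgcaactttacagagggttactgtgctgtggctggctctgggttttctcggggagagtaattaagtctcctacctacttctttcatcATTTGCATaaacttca
A peak midpoint is not a summit, so a bound site can lie outside these windows, and a match is a description of the letters only.

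The octamer letters occurred in the series-level peak of lowest enrichment of each gene. The OCT octamer was found in 3 of the 11 windows, Klf2 at -7.8 kb (enrichment 7.55), Klf4 at +12.6 kb (6.71) and Klf5 at +41.4 kb (5.38), against 5.61% of the windows of all 13341 series-level peaks. The SOX site was found in 3 (31.5% of all windows), Klf2 at -7.8 kb, Klf4 at +16.3 kb and Klf5 at +26.2 kb, with the Klf2 window at -7.8 kb holding it on both sides of the midpoint. The joint site matched in 1 window, Klf4 at +12.6 kb, with 3 mismatches and apart from the octamer there (16.9% of all). The windows of the strongest peaks of Klf2, Klf4 and Klf5 held neither the octamer nor the SOX site. By distance from the TSS, the Klf5 window at -23.0 kb lay between the 2 summits of its peak (23.2 and 22.7 kb upstream) and held neither. The same was true of the Klf5 window at +41.4 kb, with summits at 41.1 and 41.6 kb. Matches or their absence in these windows thus do not describe the letters at those summits.

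Other motifs were spread over the peaks of all 3 genes. The ESRRB site, each time with 1 mismatch, matched once in the Klf2 window at +15.3 kb and 3 times in the Klf4 window at +56.8 kb (22.7% of all windows had a match). The last of these along the printed sequence overlaps a TCF site, the motif of the factors that act on WNT targets. TCF sites were found in 3 windows, Klf4 at +56.8 kb, Klf5 at -23.0 kb and Klf5 at +41.4 kb, against 7.33% of all. The homeobox letters TAATGG were in 2 windows (16.1% of all) and TAATTG in 1 (16.0% of all). The KLF letters CCACACCC and CCCCGCCC and the STAT letters were in 0 of the 11 windows, and in 4.17%, 1.52% and 1.39% of all. The windows of Klf2 at -2.7 kb and of Klf4 at +54.8 and +68.0 kb held none of the motifs, while 75.2% of all windows held at least 1.

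Set against all protein-coding genes, Klf5 ranked highest of the 3 by the number of optimal summits, close pairs counted singly, and Klf2 and Klf4 ranked above Klf5 by their highest signal. The order by number turned among summits above the median signal, of which Klf5 had 2, Klf4 had 4 and Klf2 had 3. It also turned in the series-level mm9 list, with 3 peaks for Klf5, 5 for Klf4 and 3 for Klf2. Those mm9 peaks are wider, and they spanned 5 Klf5 sites, 5 Klf4 sites and 3 Klf2 sites. Klf5 stayed first by number in the conservative set and among the top regions of each replicate. At least 1 optimal summit lay in the window of 67.2% of genes, and the median was 1. The 3 genes each had a summit within 50 kb, in the conservative set and among the top regions of each replicate, as did 48.4% of genes within 50 kb, 51.4% in the conservative set, 67.7% in replicate 1 and 72.0% in replicate 2. At least 3, as for Klf2, were found for 24.1% of genes, at least 5, as for Klf4, for 6.91%, and at least 9, as for Klf5, for 0.647%. A highest signal of at least 312 was found for 1.59% of genes, at least 235 for 3.69% and at least 97.5 for 18.5%. Windows of genes without another TSS within 100 kb can hold sites of a large territory, and of 2910 such genes 2.44% had at least 9 summits and 11.2% at least 5. The nearest summit was 2.83 kb from the TSS of Klf2, 12.6 kb from that of Klf4 and 22.7 kb from that of Klf5, and 5.42%, 17.2% and 26.3% of genes had one as near or nearer.

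Among 25 other genes of the naive network, every one had at least 1 optimal summit in its window, with a median of 4 per gene and a range from 1 to 9, against 67.2% of all genes. In the conservative set 23 of the 25 had one (51.4% of all genes). Among the top regions of replicate 1 it was 25 (67.7% of all), and among those of replicate 2 it was 23 (72.0% of all). Of the 25, only Tbx3, a T-box factor downstream of LIF, matched the 9 summits of Klf5. A highest signal above that of Klf2 was found for Il6st, the LIF co-receptor gene (319), and Pou5f1 (314), and 7 of the 25 reached that of Klf4 or more. Of the 14 other KLF family genes, 10 had an optimal summit, and Klf7, Klf14, Klf16 and Klf17 had none. That share, 71.4%, was near the 67.2% of all genes. In the conservative set 8 of the 14 had one (51.4% of all genes). Among the top regions of replicate 1 it was 9 (67.7% of all). Among those of replicate 2 it was 11 (72.0% of all), with Klf14 and Klf16 at 1 each. The family median was 1.5 summits. Klf9 exceeded the 3 genes on both measures, with 12 summits and a highest signal of 567. Tbx3, Il6st, Pou5f1 and Klf9 are named here because of their values, after these were seen.

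The genes of these lists most like each of the 3 were found by the distance between percentiles of 3 measures over all genes (the number of summits, the highest signal and the distance of the nearest summit). For Klf2 they were Prdm14, a regulator of naive pluripotency and germ cells (3 summits, highest signal 307, distance 3.10 percentile points), and Rif1, a telomere and replication timing factor (3 summits, 153, 8.47 points). For Klf4 they were Zfp281, a zinc-finger partner of NANOG (7 summits, 173, 5.14 points), and Lifr, the LIF receptor gene (7 summits, 284, 7.70 points). For Klf5 they were Klf12 (6 summits, 70.5, 10.1 points) and Klf6 (4 summits, 138, 12.9 points), both farther away than the best match of Klf2 or Klf4. The measures come from the optimal set, which combines the 2 replicates.

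**Figure D4:**
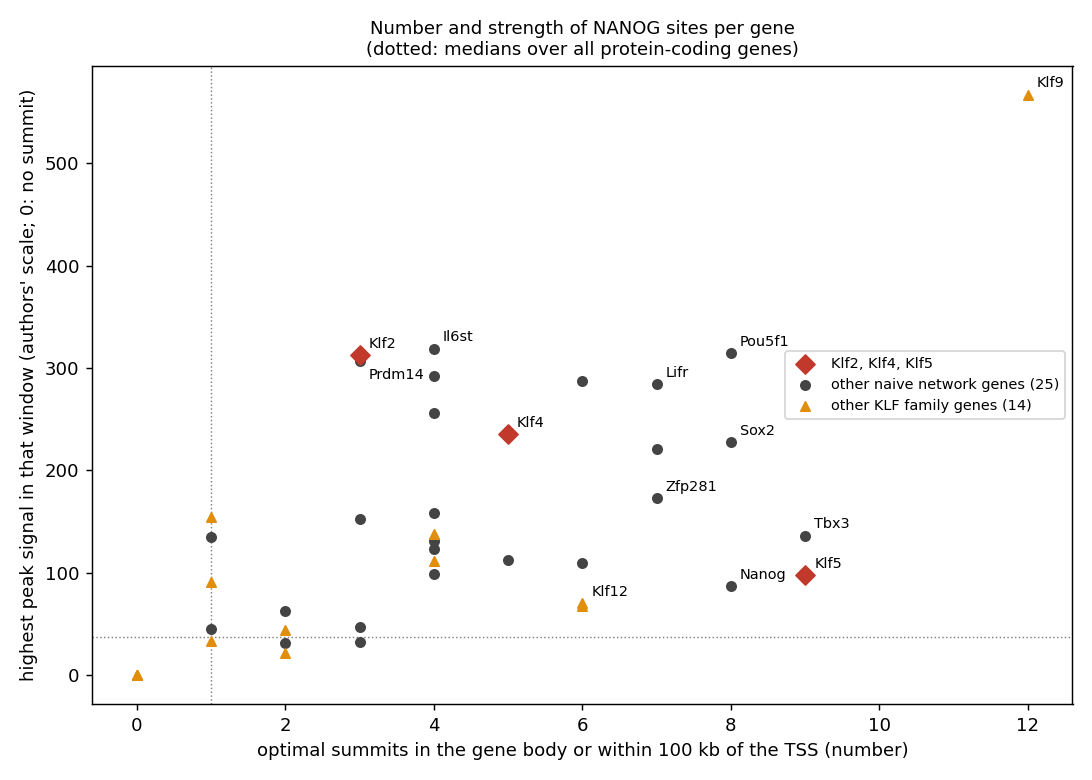
Number of optimal summits in the window (x axis) against the highest peak signal there (y axis, authors' scale) for Klf2, Klf4 and Klf5 (diamonds), 25 other naive network genes (circles) and 14 other KLF family genes (triangles); dotted lines are the medians over all 21489 protein-coding genes, 1 summit and a signal of 37.2. Klf2 and Klf4 lie among the genes of high signal, Klf5 at 9 summits beside Tbx3, and Klf9 apart at 12 summits.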

How the data were processed

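NANOG peak lists of 2 biological replicates were used as deposited. Per the labels and the names the authors gave their files, the mm10 lists are relaxed lists per replicate and for the pool, and optimal and conservative sets derived from them by IDR. The deposited signal per peak and the −log10 of the q-value were made by the authors' caller. The deposited mm9 values are an enrichment (signal), a p-value written as −log10, and an untransformed q-value. The deposited score of the IDR sets and the summit offset complete the mm10 values. Aligner, caller, versions, IDR threshold and read depth are not given in the sources used here, so no counting intervals are given.

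Computation used Python 3.11.15, NumPy 2.4.6, pandas 2.3.3 and matplotlib 3.10.9. Gene positions on mm10 came from a RefSeq GRCm38.p6 table of 21900 protein-coding genes, of which 21489 had a strand, 17492 from the RefSeq promoter table and 3997 by symbol from the mm9 annotation (Klf5 among them). Each TSS was set at the 5' edge of its gene. Sites on mm9 used the GENCODE annotation and genome of that build, and coordinates were never converted. Sites were matched by summits within 100 bp. Counting and motif search were tested on simulated data. The 3 genes, the gene lists, the motifs and the rule for named genes (the 3 genes, neighbours within their windows, the 2 most alike list genes for each, and list genes without a summit) were chosen with earlier results of these data known. Alternatives were other windows, peak sets, match limits and single replicates.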

Additional observations from a re-analysis of the deposited data

How the results depend on the processing

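With a window of 200 kb Klf2 had 7 summits, and with 50 kb Klf4 kept 2 (mm9: 2), since its far group lies outside. Among optimal peaks above the median signal, Klf5 had 2, below Klf4 with 4 and Klf2 with 3, so its first place by number turned. In the conservative set Klf5 kept first place with 7, against 4 for Klf4 and 3 for Klf2. It also did with windows of 50 kb (7, against 2 and 3) and 200 kb (10, against 6 and 7). The same held without replicate 1 (7, against 5 and 4) and without replicate 2 (8, against 5 and 5). Without 1 replicate, mm10 counts ran from 4 to 5 for Klf2, were 5 for Klf4 and ran from 7 to 8 for Klf5, and mm9 counts ran from 3 to 6, 3 to 5 and 3 to 6. Over whole mm9 regions instead of 300 bp, the motif counts of 11 peaks were 7 for the SOX site (52.2% of all whole regions), 3 for the joint site (25.4%), 6 for the ESRRB site (40.6%), 2 for CCACACCC (9.07%), 5 for TAATGG (34.9%) and 3 for TAATTG (34.5%). The octamer stayed at 3, while its share of all rose from 5.61% of windows to 9.95% of whole regions. The TCF site went from 3 to 4, and its share of all from 7.33% to 17.7%. The whole regions of the 11 peaks were 811 to 1464 bp wide, against a median of 853 bp over the series-level list. Counts and shares over whole regions are therefore not matched for length. Among genes with a body of at most 20 kb, a background added after seeing the data, 0.207% had at least as many summits as Klf5. Of all values under the alternatives, 55 stayed within 1.5 times the main value, while 14 planned ones and 1 unplanned one did not. No paired analysis was possible because there is 1 group. Read depth is unknown, and the order of sites of close rank is not fixed by 2 replicates.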

Other observations

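A few top regions of a single replicate lay near the genes without an optimal summit within 100 bp. Around Klf2, replicate 1 had one 27.7 kb upstream (rank 12810) and one 17.3 kb downstream (rank 15722), and replicate 2 had one 26.3 kb upstream (rank 4902, against 104864 in replicate 1). Around Klf5, replicate 2 had them 67.4 and 27.9 kb upstream (ranks 7730 and 14154), neither with a replicate 1 summit within 100 bp. Replicate 1 had none around Klf4 or Klf5.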
